A study of Homo sapiens with 7 samples.

Results

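Non-muscle cells that carried transcripts of LUM, FRZB or UPK3B made up 19.9% of the cells of a human cardiac culture grown to day 15 with DMSO. They had been labelled mesothelial and fibroblast-like. The culture came from H1 cells, a widely used line of human embryonic stem cells, and DMSO served as the vehicle. Cells were chosen by their counts of unique molecular identifiers (UMIs), each of which marks 1 captured transcript molecule. The muscle score of a cell was the share of its UMIs that came from the 4 sarcomere genes TNNT2, ACTN2, MYH6 and TNNI1, and the 95th percentile of that score in the DMSO library was 1.85%. A cell was a member when its score was below 0.1 of that value (0.185%), when it held at least 3 UMIs of FRZB, LUM and UPK3B together, and when this sum was larger than that of STMN2, SFRP5 and TCF21. This rule gave 798 of the 4015 cells of the library, or 19.9% (95% Clopper-Pearson interval 18.7 to 21.1), out of 15305 cells in the 3 single-cell libraries of the series. They are called LUM/FRZB/UPK3B cells below.

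The members were set against other cells of the DMSO library and against cells of the same rule elsewhere. Muscle cells had a score of at least 0.25 of the 95th percentile (0.463%) and numbered 2122. STMN2/SFRP5/TCF21 cells, 451 in number, had the same low muscle score and met the gene condition the other way round. The 2 further libraries were H1-derived cardiac cells at day 15 with CHIR, and at day 11 with no treatment stated. CHIR is the usual abbreviation of CHIR99021, which blocks the kinase GSK3 and thereby switches on canonical Wnt signalling. Its dose and timing are not given in the labels. Each condition had 1 library of 1 line, so no difference has a replicate check, no p-value is given, and every interval covers counting error only. What was measured is RNA, captured at the 3′ ends of transcripts from live sorted cells in droplets.

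Mesothelium is the flat epithelium that lines the body cavities and the organs within them, and on the heart it forms the epicardium. Its cells carry keratins and surface glycoproteins, and some of them can lose their epithelial character and become fibroblasts or smooth muscle. Fibroblasts make the collagens of connective tissue and the small leucine-rich proteoglycans that bind to collagen fibrils. Among the genes used here, UPK3B encodes a uroplakin that is widely used as a mesothelial marker, LUM (lumican) and DCN (decorin) encode small leucine-rich proteoglycans, FRZB encodes a secreted Wnt antagonist, and MGP (matrix Gla protein) encodes an inhibitor of calcification.

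The promoters of the rule genes FRZB and UPK3B are shown because both genes chose the members and were often found in the same cells. Of the 5 genes looked up in the RefSeq promoter table (GRCh38.p14), these 2 had an entry. LUM, DCN and MGP were the others. Both windows hold the 250 bases before the annotated transcription start, read 5′ to 3′ on the gene's strand. FRZB lies on the minus strand (chr2:182866638-182866887) and UPK3B on the plus strand (chr7:76510302-76510551). Capitals mark matches to GATAA, a core motif of GATA factors, or to CANNTG, the E-box, each searched on both strands.
FRZB: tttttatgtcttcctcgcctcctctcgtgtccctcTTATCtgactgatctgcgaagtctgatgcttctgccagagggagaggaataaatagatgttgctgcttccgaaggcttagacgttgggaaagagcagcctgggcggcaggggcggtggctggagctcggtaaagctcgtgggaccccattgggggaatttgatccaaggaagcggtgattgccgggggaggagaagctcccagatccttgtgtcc
UPK3B: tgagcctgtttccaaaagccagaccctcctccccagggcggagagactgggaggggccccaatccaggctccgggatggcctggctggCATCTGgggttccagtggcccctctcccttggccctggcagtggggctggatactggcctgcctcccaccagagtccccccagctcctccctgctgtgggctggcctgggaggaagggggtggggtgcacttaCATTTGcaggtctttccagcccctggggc
The FRZB window held 1 GATAA match on the reverse strand, 215 to 211 bases before the start, and no E-box. The UPK3B window held 2 E-boxes, 162 to 157 and 29 to 24 bases before the start, and no match to the GATA motif. In the whole table, GATAA was found in 20.4% and the E-box in 61.8% of the 35116 promoter windows of this length, so neither pattern was rare.

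The members were the most deeply counted class, with a median of 20551.5 UMIs per cell, against 14350 in STMN2/SFRP5/TCF21 cells and 13344.5 in muscle cells. Their median mitochondrial share was 2.42%, against 3.13% in STMN2/SFRP5/TCF21 cells and 4.94% in muscle cells. The libraries held 65675862 UMIs with DMSO, 81076689 with CHIR and 75906387 at day 11, and any pair of them shared 3 to 6 cell barcodes. A doublet caller marked 10 members (1.25%) and 162 muscle cells (7.63%). Called cells were kept, and the values without them are given where they matter. Levels are given as CPM, the UMIs of a gene summed over a class and scaled to a class total of 1000000 UMIs.

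LUM, which was nearly universal among the members by choice, had 1342 CPM in them, against 65.9 CPM in STMN2/SFRP5/TCF21 cells and 55.1 CPM in muscle cells. At least 1 LUM UMI was present in 98.9% of members, 33.3% of STMN2/SFRP5/TCF21 cells and 13.1% of muscle cells, with a median of 23 and a maximum of 163 UMIs per member. FRZB stood at 502 CPM in members, 21.6 in STMN2/SFRP5/TCF21 cells and 38.8 in muscle cells, and was detected in 79.1%, 20.2% and 22.6% of those cells. UPK3B stood at 100 CPM in members, 14.3 in STMN2/SFRP5/TCF21 cells and 6.43 in muscle cells, and was detected in 48.7%, 7.98% and 3.30% of them. These levels describe the choice of the cells and are not results. After each cell was thinned to 8000 UMIs, which left out 4 members, 8 STMN2/SFRP5/TCF21 cells and 334 muscle cells, LUM was detected in 97.7% of members and 10.2% of muscle cells, FRZB in 72.4% and 15.7%, and UPK3B in 34.3% and 2.52%.

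DCN and MGP had been named as markers of the cells but were not part of the rule. DCN had 600 CPM in members, 70.5 in STMN2/SFRP5/TCF21 cells and 31.3 in muscle cells, and was detected in 90.0%, 32.2% and 8.39% of them. MGP had 178 CPM in members, 77.5 in STMN2/SFRP5/TCF21 cells and 7.03 in muscle cells, and was detected in 39.7%, 12.6% and 4.05% of them. DCN was thus spread over most members, with a median of 11 UMIs per cell, whereas MGP was present in fewer of them with a median of 0, and 10 of the 798 cells held 26.6% of its UMIs. Muscle cells called doublets weighed on the muscle values: without called cells the log2 ratio of members over muscle cells was 6.94 for DCN and 6.97 for LUM, against 4.26 and 4.61 with them.

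At the edge of the rule, 14 members held exactly 3 UMIs of FRZB, LUM and UPK3B and showed 127 CPM of DCN and 61.7 CPM of EPCAM. The 13 cells with 2 such UMIs, just outside, showed 20.1 CPM of DCN and 269 CPM of EPCAM. Another 8 cells were left out because the sums of the gene trios were tied. On the muscle side, 110 cells just under the score limit had 1370.5 CPM of LUM and 712 CPM of DCN, and 68 cells just over it that met the gene condition had 1611 and 788 CPM. LUM was part of the gene condition on both sides, whereas DCN was not. Of the 549 cells of intermediate score, 176 (32.1%) met the gene condition.

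**Figure D1:**
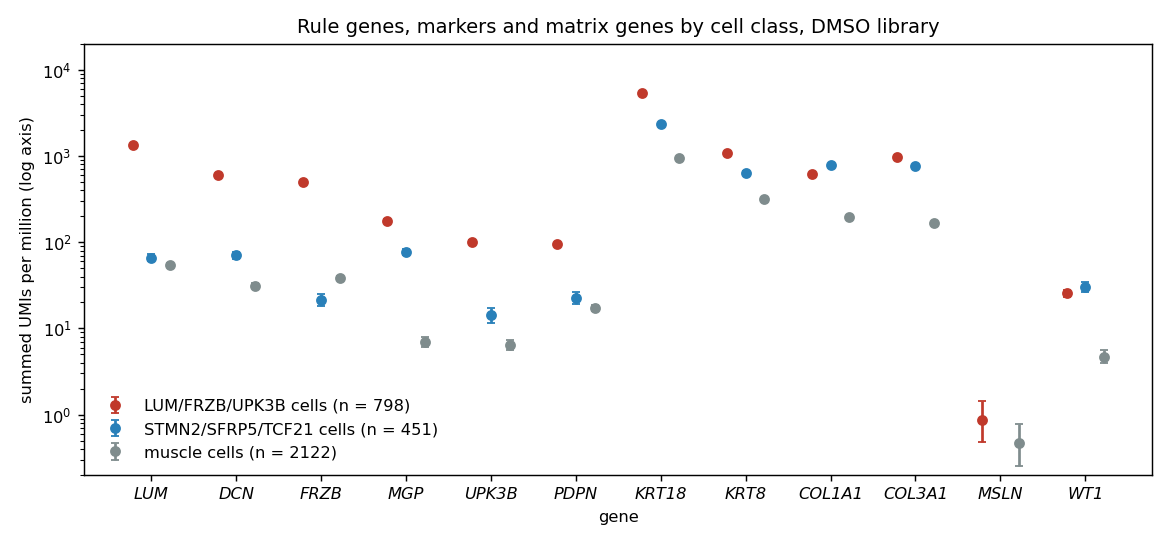
CPM (log axis) of rule genes (LUM, FRZB, UPK3B), markers and matrix genes in LUM/FRZB/UPK3B cells (red), STMN2/SFRP5/TCF21 cells (blue) and muscle cells (grey) of the DMSO library; bars are exact 95% Poisson intervals. KRT18 was highest in the red class at 5414 CPM, whereas MSLN was near 0 in members (0.868 CPM) and muscle cells, and had no UMI in STMN2/SFRP5/TCF21 cells, so no blue point is drawn.

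The label was borne out in part. Of the mesothelial markers, the keratins KRT8 and KRT18, which form the filaments of simple epithelia, had 1073 and 5414 CPM in members, against 317 and 963 CPM in muscle cells. PDPN (podoplanin, a mesothelial and lymphatic surface glycoprotein) had 94.3 CPM in members, 22.5 in STMN2/SFRP5/TCF21 cells and 17.4 in muscle cells. WT1, a transcription factor of epicardium and mesothelium, had 25.6 CPM in members, 30.6 in STMN2/SFRP5/TCF21 cells and 4.72 in muscle cells. Of the other mesothelial markers, MSLN (mesothelin) had 0.868 CPM in members and 0.468 in muscle cells, and MUC16 had 1 UMI over all 798 members. Of the fibroblast markers, COL1A1 had 617 CPM and COL3A1 970 CPM in members, against 196 and 165 CPM in muscle cells. PDGFRA, a receptor that marks fibroblasts, was lower at 23.6 CPM in members, against 45.1 CPM in muscle cells, and neither DPT nor OGN had a UMI in members. The cells therefore carried simple-epithelial keratins together with collagen and proteoglycan transcripts, with MSLN and MUC16 close to absent, and they are named here by their rule genes.

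No member was positive for UPK3B and negative for LUM, so the intended contrast of UPK3B-only with LUM-only cells could not be made. The count was 0 of 798. A floor of 3 cells, which is not a Clopper-Pearson limit, would be a share of 0.376%. All 3 rule genes were found together in 337 members (42.2%), LUM with FRZB in 285 (35.7%), LUM with UPK3B in 52 (6.52%), LUM alone in 115 (14.4%) and FRZB alone in 9 (1.13%). UPK3B was detected in 53.4% of the 631 members with FRZB (interval 49.4 to 57.4) and in 31.1% of the 167 members without FRZB (24.2 to 38.8), at median depths of 20411 and 20859 UMIs. Since the summed UMIs of these 3 genes chose the members, and LUM was in 98.9% of them, these combinations describe the choice and are not a result.

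Against muscle cells, the members showed a collagen- and proteoglycan-rich profile. Of 16126 genes with at least 20 UMIs over both classes, 10.8% were more than 2-fold higher and 26.2% more than 2-fold lower in members, with a median log2 ratio of -0.26. Because the rule separated the classes by muscle genes, this contrast is a description and nothing is read from these shares. Under TMM scaling the median of all genes was -0.11. Of 12 mesothelial genes other than UPK3B, 6 were higher and none lower (median 1.32). Of the 14 fibroblast genes listed, 11 could be compared, of which 10 were higher and none lower, with a median log2 ratio of 2.55. THY1, a surface glycoprotein of fibroblasts, had 117 CPM in members and 8.60 in muscle cells, and POSTN (periostin, a matricellular protein) had 74.7 and 6.12 CPM. Among small leucine-rich proteoglycans, 5 of 6 were higher, among them BGN (biglycan) at 18.6 CPM in members and 4.95 CPM in muscle cells. Among fibrillar collagens, 5 of 7 were higher and COL2A1 was lower at 19.4 CPM in members, against 171 CPM in muscle cells. The elastic fibre list had 8 of 11 genes higher, including LOX, the enzyme that crosslinks collagen and elastin, at 25.9 CPM in members and 4.28 CPM in muscle cells. It also held 2 lower genes, and FBN2, a fibrillin of developing microfibrils, had 12.7 CPM in members and 377 CPM in muscle cells.

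Basement membrane genes went the other way, with 0 of 14 higher and 8 lower (median log2 ratio -1.82). LAMA4, a laminin chain, had 0.984 CPM in members and 105 CPM in muscle cells. NID2, a nidogen that links laminin to type IV collagen, had 18.0 CPM in members and 99.7 CPM in muscle cells. All 15 genes of the sarcomere list were lower (median -6.37). None of them was part of the muscle score, but that score separated the classes by other sarcomere genes and so favoured this. Of 14 cardiac transcription factors 9 were lower, NKX2-5 with 25 CPM in members and 664 CPM in muscle cells. HAND1 was the 1 higher, at 422 CPM in members (detected in 82.7%) and 87.6 CPM in muscle cells (47.7%).

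Signalling genes were mixed. The insulin-like growth factor list had 4 of 8 genes higher and 1 lower: IGF2, a fetal growth factor, had 226 CPM in members and 28.7 CPM in muscle cells, and the binding protein IGFBP3 had 462 and 36.6 CPM. Of 17 BMP and TGF-beta genes, 4 were higher and 5 lower. The ligand BMP4 had 103 CPM in members and 35.3 CPM in muscle cells, whereas the ligand BMP2 had 3.94 and 96.5 CPM. TGFBI, a matrix protein induced by TGF-beta, had 78.0 CPM in members and 6.43 CPM in muscle cells. Of 10 Wnt antagonists and R-spondins, 3 were higher, FRZB by choice, and 5 lower. SFRP2 had 27.6 CPM in members and 5.79 CPM in muscle cells, and RSPO3, a Wnt agonist, had 49.5 and 114 CPM. Of 7 Wnt target genes none was higher and 2 were lower. Of 16 cell cycle genes 3 were higher and none lower, among them the mitotic kinase gene CDK1 at 88.1 CPM in members and 29.4 CPM in muscle cells, whereas MKI67 had 14.4 and 24.8 CPM.

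**Figure D2:**
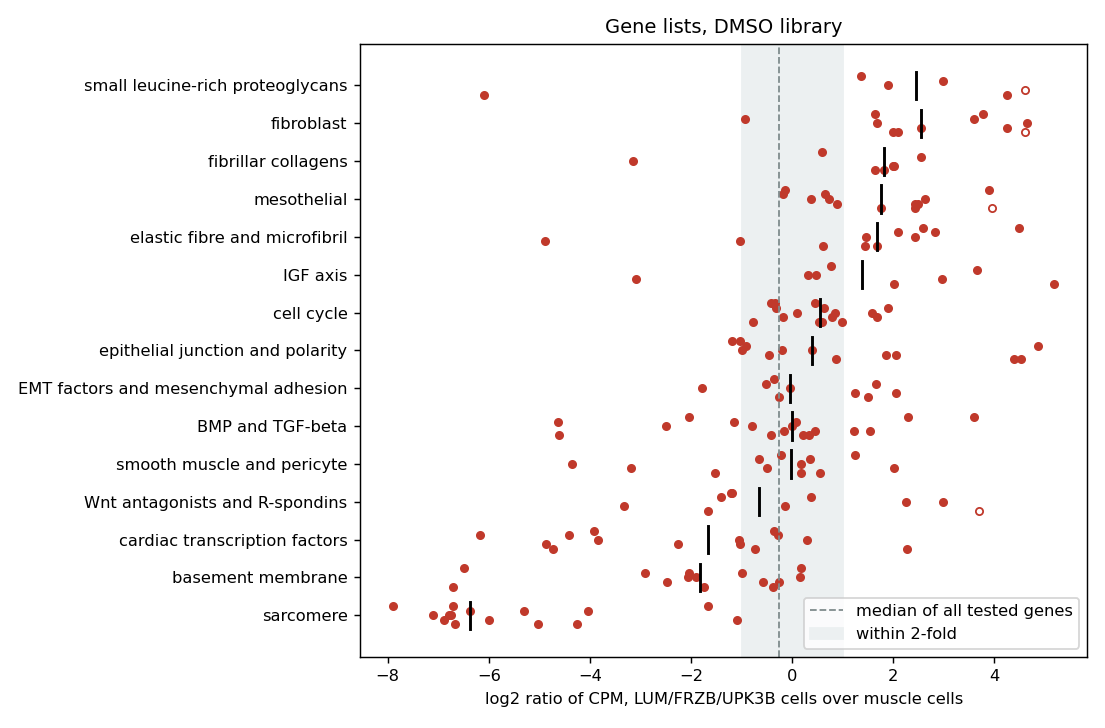
Log2 ratio of CPM in LUM/FRZB/UPK3B cells over muscle cells for the genes of 15 lists with at least 20 UMIs, DMSO library; each dot is a gene, open dots are genes of the rule, black bars are list medians, the dashed line is the median of all tested genes and the shaded band lies within 2-fold. Proteoglycan, fibroblast and collagen genes sit to the right and basement membrane and sarcomere genes to the left.

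The remaining lists gave the content of other cell types. The endothelial list summed to 157 CPM in members and 97.1 CPM in muscle cells, with 4 of 8 genes testable, 1 higher and none lower, and PECAM1 at 1 UMI in members. The endoderm list summed to 19.5 CPM in members and 88.6 CPM in muscle cells, the neural list to 88.4 and 22.2 CPM, nearly all of it TUBB3, and the blood list to 1.22 and 1.27 CPM. Of 12 smooth muscle genes, 2 were higher and 3 lower. TAGLN (transgelin) had 2111 CPM in members and 520 CPM in muscle cells, and MYH11, the smooth muscle myosin, 0.521 and 11.2 CPM. Epicardial genes other than those of the rule had 2 of 6 higher and none lower. Of 11 genes of chemokines and complement 5 were higher and 1 lower, of 12 growth factor receptors and PDGF ligands 3 and 3, of 11 retinoic acid genes 2 and 1, of 9 genes of epithelial-mesenchymal transition 4 and 1, of 5 cartilage and tendon genes 1 and 1, of 3 pluripotency genes 1 and 0, and of 10 immediate early genes 1 and 2.

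The genes that stood furthest from muscle cells, among those with at least 50 CPM in either class, were led by HOXC8, a homeobox gene of trunk position. It had 83.7 CPM in members and 3.15 CPM in muscle cells, 26.6-fold higher (21.6 to 33.1), and was detected in 49.2% of members and 1.70% of muscle cells. PRPH, an intermediate filament of peripheral neurons, was 22.9-fold higher (157 and 6.86 CPM). NNMT, a nicotinamide methyltransferase, was 22.4-fold higher, and SPP1 (osteopontin), a secreted phosphoprotein, 21.5-fold (195 and 9.10 CPM). ANXA1, a phospholipid-binding annexin, had 520 CPM in members and 29.4 CPM in muscle cells. NPY, a neuropeptide, had 146 and 9.10 CPM, 16.0-fold higher (14.1 to 18.2), and RGCC, MAB21L2, LAYN and THY1 completed the highest genes at 13.7- to 21.4-fold. The lowest were mostly genes of the sarcomere and of heart muscle, from TTN at 111-fold lower to MYH7 at 261-fold lower (112 to 804) with 5 UMIs in all members. Without called doublets the log2 ratio of HOXC8 was 8.90 in place of 4.73, that of NNMT 6.51 in place of 4.48 and that of NPY 5.47 in place of 4.00.

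The same contrast was then taken in the CHIR and day 11 libraries. The same rule chose the cells there, so these values are descriptions and not an independent check. HOXC8 was 11.0-fold higher in the CHIR cells of the same rule than in CHIR muscle cells, and 160-fold higher at day 11 (31.1 and 0.194 CPM). DCN was 8.25-fold higher with CHIR and 84.3-fold at day 11, and COL3A1 4.53-fold and 12.2-fold. POSTN was 12.2-fold higher with DMSO, 6.50-fold with CHIR and 13.0-fold at day 11. LAMA4 was far lower in all 3 libraries, at 0.984 CPM in DMSO members and 105 CPM in DMSO muscle cells, 2.08 and 90.4 CPM with CHIR, and 1.25 and 210 CPM at day 11. These genes thus pointed the same way against muscle cells in each of the 3 cultures. NPY did so less evenly: it was 16.0-fold higher with DMSO, but had only 0.705 CPM in CHIR members and 0.106 CPM in CHIR muscle cells, and 29.8 and 20.0 CPM at day 11 (1.49-fold, 1.31 to 1.69). ACTA2, smooth muscle actin, was 1.47-fold higher in members with DMSO (667 and 453 CPM) and had 143 and 731 CPM with CHIR.

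HOX genes were then read as a group, chosen after HOXC8 had been seen to lead. Of 30 HOX genes listed, 21 could be compared with muscle cells, of which 18 were higher and none lower, with a median log2 ratio of 3.50. HOXC6 had 28.0 CPM in members and 1.10 CPM in muscle cells, HOXB7 26.4 and 1.84 CPM, and HOXC9 11.9 and 0.535 CPM. The 3 genes within 2-fold were the anterior genes HOXB1, HOXB3 (20.6 and 21.8 CPM) and HOXB4 (43.5 and 36.8 CPM), and HOXB2 was 2.12-fold higher (67.7 and 32.0 CPM). The members therefore differed from muscle cells less in HOXB1 to HOXB4 than in most HOX genes of higher number.

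Within the members, 389 cells with UPK3B (48.7%), all of which also had LUM, were set against the 400 cells with LUM and no UPK3B (50.1%). Cells with UPK3B carried more PDPN, PODXL and EZR and less ACTA2, TAGLN and IGFBP7. Their median depth was 21526 UMIs, against 19130 UMIs in LUM-only cells. Of 13116 genes compared, 3.38% were more than 2-fold higher and 5.47% lower in UPK3B-detected cells, with a median log2 ratio of -0.03. UPK3B itself chose the classes and is not counted among the results.

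Of 9 mesothelial genes other than UPK3B, 3 were higher in UPK3B-detected cells and none lower. PDPN had 136 CPM in UPK3B-detected cells (present in 90.0%) and 50.7 CPM in LUM-only cells (48.0%), 2.69-fold higher (2.40 to 3.01). CALB2 (calretinin), a calcium-binding protein used as a mesothelial marker, had 17.1 CPM in UPK3B-detected cells and 3.52 CPM in LUM-only cells, and BNC1, a zinc finger protein of mesothelium and other epithelia, 25.7 and 10.8 CPM. PODXL (podocalyxin), a sialomucin of apical membranes, had 87.0 CPM in UPK3B-detected cells and 21.8 CPM in LUM-only cells, 3.98-fold higher (3.38 to 4.71). EZR (ezrin), which ties apical membrane to actin, had 324 and 149 CPM. These were the 2 higher of 13 genes of epithelial junctions and polarity, of which 6 were lower (median -0.29). Without the members that carried EPCAM, CLDN4 and CLDN7, described further on, 3 of 9 were higher and none lower (median 0.55). After thinning to 8000 UMIs BNC1 and EZR no longer passed 2-fold, with log2 ratios of 0.71 and 0.77, and PODXL was 1.19 in place of 1.99. The thinned mesothelial list, UPK3B included, had 3 of 10 genes higher and 1 lower. The highest gene was RBP7, a retinol-binding protein, with 98.0 CPM in UPK3B-detected cells (present in 50.1%) and 12.6 CPM in LUM-only cells (13.0%), 7.77-fold higher (6.33 to 9.61). PLAC9 was 4.63-fold higher, the chemokine scavenger receptor gene ACKR3 3.36-fold (197 and 58.7 CPM), PRPH 3.10-fold (236 and 76.0 CPM) and NPY 2.79-fold (213 and 76.2 CPM).

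Smooth muscle genes lay mostly on the LUM-only side, with 0 of 10 higher and 8 lower in UPK3B-detected cells (median log2 ratio -1.52, against -0.03 over all genes). ACTA2 had 209 CPM in UPK3B-detected cells and 1166 CPM in LUM-only cells, TAGLN 1087 and 3210 CPM, the actin-binding CNN1 (calponin) 86.7 and 301 CPM, and DES (desmin) 25.5 and 74.7 CPM. After thinning, 5 of 9 were lower and none higher. RGS5, a pericyte gene, went against the list at 145 and 106 CPM. IGFBP7, a secreted binding protein, had 43.6 CPM in UPK3B-detected cells and 534 CPM in LUM-only cells, 12.3-fold lower (11.0 to 13.6), and was present in 15.4% and 49.2% of these cells. Among 17 BMP and TGF-beta genes, 1 was higher and 6 lower, TGFBI at 27.6 CPM in UPK3B-detected cells and 131 CPM in LUM-only cells, the activin subunit INHBA at 5.29 and 32.3 CPM, and the pseudoreceptor BAMBI at 126 and 481 CPM. LOX had 4.50 CPM in UPK3B-detected cells and 49.1 CPM in LUM-only cells, and the retinoic acid-binding gene CRABP2 83.4 and 350 CPM.

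Matrix genes were mixed. None of 11 fibroblast genes passed 2-fold in either direction (median -0.61), or 2 were lower without the EPCAM, CLDN4 and CLDN7 cells and 1 after thinning. DCN had 759 CPM in UPK3B-detected cells and 437 CPM in LUM-only cells, COL1A1 490 and 747 CPM, and MGP 188 and 167 CPM. BGN was lower at 6.08 and 29.9 CPM, and 3 of 11 elastic fibre genes were lower, with FBN1 at 5.29 and 19.2 CPM. Of 15 cell cycle genes, 2 were higher and none lower, and after thinning 0 of 14 were higher. Of 9 genes of epithelial-mesenchymal transition, 1 was lower and none higher, or 3 were lower after thinning and 4 without the EPCAM, CLDN4 and CLDN7 cells. The intermediate filament gene VIM had 2409 and 3937 CPM.

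Some of the LUM-only excess sat in single cells. Of the 428 SST (somatostatin) UMIs of LUM-only cells, 397 came from 1 cell, so that its 65.9-fold lower level in UPK3B-detected cells describes that cell. Likewise 1145 of the 2686 NPPB UMIs of LUM-only cells were in 1 cell, and 10 cells held 60.5% of those of ACTG2. ACTA2 and TAGLN also varied widely from cell to cell, with maxima of 460 and 778 UMIs among LUM-only cells and medians of 2 and 15. IGFBP7 was more evenly shared, with 3.02% of its LUM-only UMIs in the highest cell. When cells were thinned to 8000 UMIs and divided anew, the log2 ratio of IGFBP7 was -3.53 in place of -3.61 and that of ACTA2 -2.11 in place of -2.48, whereas SST was -1.36 in place of -5.94 and RBP7 1.71 in place of 2.95.

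**Figure D3:**
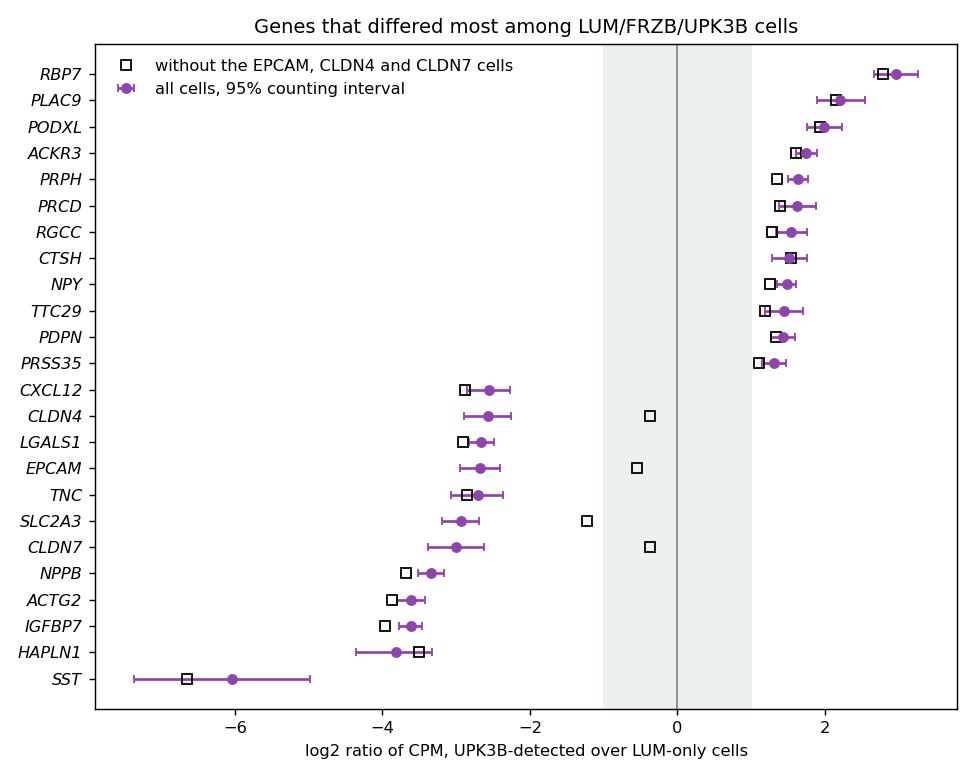
Log2 ratio of CPM in UPK3B-detected over LUM-only cells for the 12 highest and 12 lowest genes with at least 50 CPM in either class, DMSO library; purple dots have exact 95% counting intervals, open squares leave out cells with at least 3 UMIs of EPCAM, CLDN4 and CLDN7, and the shaded band lies within 2-fold. IGFBP7, ACTG2 and TNC stayed far to the left without those cells. EPCAM, CLDN4 and CLDN7 moved into the band, which follows from leaving out cells by these genes.

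The count of UPK3B per cell gave a finer view. Among the 409 members with no UPK3B, the 158 with 1 to 2 UMIs, the 89 with 3 to 4 and the 142 with 5 or more, PDPN stood at 49.8, 107, 146 and 160 CPM and PODXL at 21.4, 73.1, 84.5 and 103 CPM. KRT18 stood at 4295, 5904, 6709 and 6911 CPM in the same order, and FRZB at 397, 525, 618 and 672 CPM. KRT19, another keratin of the mesothelial list, did not rise in this way, at 1096, 1118, 888 and 871 CPM. Its log2 ratio between UPK3B-detected and LUM-only cells was -0.19, or 0.45 without the EPCAM, CLDN4 and CLDN7 cells. ACTA2 stood at 1152, 305, 127 and 160 CPM, TAGLN at 3195, 1418, 1032 and 778 CPM, and IGFBP7 at 541, 75.7, 19.2 and 25.4 CPM. LUM was nearly level, at 1388, 1285, 1365 and 1269 CPM. For PDPN, PODXL, ACTA2, TAGLN and IGFBP7 the levels at 1 to 2 UMIs already lay apart from those without UPK3B, and they lay further apart at 3 to 4 UMIs. Median depth was 19063, 21065, 23100 and 21634 UMIs in these 4 bins, and its part in the steps was not tested.

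**Figure D4:**
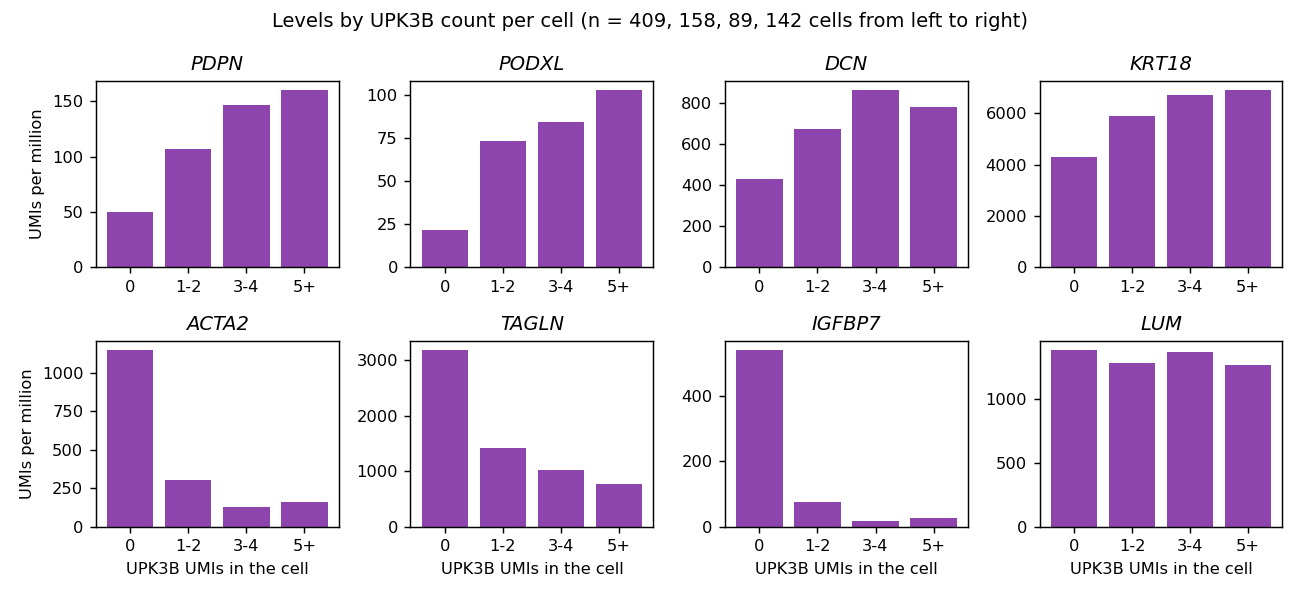
CPM (bars from 0) of 8 genes in LUM/FRZB/UPK3B cells of the DMSO library, by the number of UPK3B UMIs in the cell (0, 1 to 2, 3 to 4, and 5 or more). PDPN, PODXL and KRT18 were higher and ACTA2, TAGLN and IGFBP7 lower in each bin with UPK3B than in cells without it. ACTA2 and IGFBP7 were lowest at 3 to 4 UMIs, and LUM stayed between 1269 and 1388 CPM.

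A subset of the members carried genes of epithelial junctions. In 87 members (10.9%) EPCAM, CLDN4 and CLDN7 together reached 3 UMIs, a limit set after the values had been seen, and 6 of these were called doublets, against 4 of the other 711 members. Of 13157 genes, 7.55% were more than 2-fold higher and 14.1% lower in them. They were led by GABRP, a GABA receptor subunit, with 251 UMIs, and by the protease PRSS22 with 159 UMIs, neither of which had a UMI in the other members. With a floor of 3 counts over the other members these genes were at least 648-fold and at least 410-fold higher. The ratio of SFN (stratifin, an epithelial 14-3-3 protein) was 1765 (314 to 70034) with 228 UMIs against 1. The transcription factor TFAP2A was 195-fold higher (115 and 0.588 CPM), DLX5 192-fold and the epithelial GTPase gene RAB25 106-fold (345 and 3.27 CPM). MGP had 4 UMIs in the 87 cells, 99.0-fold lower (2.02 and 200 CPM), NNMT 4.05 CPM in them against 80.7 CPM in the other members, and RGCC 4.05 and 69.9 CPM. DCN, also outside the rule, had 110 CPM in the 87 cells and 664 CPM in the other members, 6.02-fold lower. Of the rule genes, FRZB had 28.3 and 563 CPM and UPK3B 16.7 and 111 CPM, whereas LUM was close at 1109 and 1372 CPM. IGFBP7 was present in 92.0% of the 87 cells and 25.7% of the other members. Of 21 HOX genes, 18 were lower and none higher (median -2.09), and of 13 genes of epithelial junctions and polarity 8 were higher and none lower, in part by choice.

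These 87 cells were unevenly placed. They made up 76 of the 409 members without UPK3B, and 8, 1 and 2 of the members in the 3 bins with UPK3B. EPCAM had 15.4 CPM in UPK3B-detected cells and 98.4 CPM in LUM-only cells, and without the 87 cells its log2 ratio was -0.54 in place of -2.67. SLC2A3, a glucose transporter, was -1.23 in place of -2.93. Without the 87 cells the log2 ratio of ACTA2 was -2.76, that of TAGLN -1.77 and that of IGFBP7 -3.96, and 7 of 10 smooth muscle genes were lower. Of the 13 epithelial junction genes compared with muscle cells, 2 were higher and 6 lower without the 87 cells (median -0.99), in place of 5 higher and 2 lower (median 0.40). Since EPCAM, CLDN4 and CLDN7 of this list chose the 87 cells, that change is in part set by the filter. CDH1 (E-cadherin) was higher in both cases, with a log2 ratio of 4.40 and of 3.82 without them.

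Against the STMN2/SFRP5/TCF21 cells, the other non-muscle class of the culture, the members had higher HAND1, PRPH and HOXC8 and lower epicardial and retinoid genes. That class was chosen in part by TCF21, itself a gene of the epicardial list. Of 14143 genes, 6.27% were more than 2-fold higher (887 genes) and 9.41% lower (1331 genes), with a median log2 ratio of -0.12. Under TMM scaling the counts were 1085 higher and 1037 lower and the median was 0.03. HAND1 had 422 CPM in members and 21.8 CPM in STMN2/SFRP5/TCF21 cells, 19.4-fold higher (16.5 to 22.9). PRPH had 157 and 2.97 CPM (53.0-fold), HOXC8 83.7 and 3.40 CPM (24.6-fold), RGCC 62.4 and 0.990 CPM (63.0-fold, 30.5 to 157) and DCN 600 and 70.5 CPM (8.52-fold). MSX1, a homeobox gene of BMP-responsive mesenchyme, had 92.5 and 11.3 CPM. KDR, a VEGF receptor, had 19.5 CPM in members and 0.566 CPM in STMN2/SFRP5/TCF21 cells, 34.5-fold higher. Of 21 HOX genes, 14 were higher and none lower (median 1.47).

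On the lower side, SERPINA1, a protease inhibitor best known from liver, had 1.97 CPM in members and 360 CPM in STMN2/SFRP5/TCF21 cells, 183-fold lower (131 to 265). Of 6 epicardial genes outside the rule none was higher and 4 were lower (median -2.47, against -0.12 over all genes), TBX18 with 4.57 CPM in members and 41.2 CPM in STMN2/SFRP5/TCF21 cells, and SEMA3D with 4.34 and 31.0 CPM. The choice of the reference class by TCF21 favours cells with epicardial genes, and its part in these values was not tested. Of 11 retinoic acid genes 2 were higher and 7 lower (median -1.53), CRABP2 with 216 and 537 CPM. The Wnt inhibitor DKK1 had 14.3 CPM in members and 127 CPM in STMN2/SFRP5/TCF21 cells, and SFRP1 313 and 1343 CPM. The 2 classes were alike in fibrillar collagens, of which none of 7 passed 2-fold in either direction (COL1A1 617 and 782 CPM, COL3A1 970 and 769 CPM). Of 16 cell cycle genes, 7 were higher and none lower in members. Among 11 mesothelial genes outside the rule 4 were higher and 2 lower, PDPN at 94.3 and 22.5 CPM, KRT18 at 5414 and 2367 CPM and CALB2, on the lower side, at 10.5 and 29.99 CPM. The epithelial junction list had 8 of 13 genes higher and none lower, or 3 higher and 4 lower without the 87 EPCAM, CLDN4 and CLDN7 cells, which genes of this list had chosen. All 6 endoderm genes that could be compared were lower, with list sums of 19.5 CPM in members and 511 CPM in STMN2/SFRP5/TCF21 cells, and the part of such transcripts in the other values was not tested.

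The rule was then applied in the other libraries with the score percentile taken anew in each. It gave 1771 of 5607 cells (31.6%) with CHIR and 627 of 5683 (11.0%) at day 11, against 798 of 4015 (19.9%) with DMSO. UPK3B was found in 389 of the DMSO cells (48.7%), in 53 of the CHIR cells (2.99%) and in 102 of the day 11 cells (16.3%), at median depths of 20551.5, 13439 and 17346 UMIs. The UPK3B level was 100 CPM with DMSO, 2.08 CPM with CHIR and 16.4 CPM at day 11. LUM alone, without FRZB and UPK3B, marked 14.4% of DMSO cells, 61.5% of CHIR cells and 39.7% of day 11 cells. Since the rule used these genes in all libraries and the shares rest on 1 library each, the shares are descriptions. Cells without LUM but with UPK3B numbered 0 with DMSO, 0 with CHIR and 1 at day 11. The ribosomal share of UMIs had a median of 29.5% with DMSO, 34.2% with CHIR and 20.6% at day 11, and EPCAM, CLDN4 and CLDN7 cells made up 10.9%, 2.37% and 17.2%. The part of either in the differences was not tested. Both comparisons that follow use the same 798 DMSO cells.

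Against the CHIR cells of the same rule, the DMSO members had far lower Wnt target genes and higher KRT18, smooth muscle and IGF-axis genes. Of 15343 genes, 12.4% were more than 2-fold higher and 20.9% lower in DMSO members (median -0.22). All 8 Wnt target genes that could be compared were lower, with a median log2 ratio of -3.39. NKD1, a feedback inhibitor of Wnt signalling, had 0.637 CPM in DMSO members and 171 CPM in CHIR cells, 268-fold lower (150 to 538). AXIN2, a target used as a readout of the pathway, had 1.56 and 54.5 CPM, 34.9-fold lower (23.9 to 53.1), and the transcription factor LEF1 had 10.4 and 115 CPM. POSTN had 74.7 CPM in DMSO members and 853 CPM in CHIR cells, 11.4-fold lower (10.8 to 12.1). Of 9 genes of epithelial-mesenchymal transition, 1 was higher and 6 were lower (median -1.82), PRRX1 with 12 and 103 CPM, TWIST1 with 34.1 and 126 CPM and SNAI2 with 20.7 and 73.4 CPM. The limb and heart T-box gene TBX3 had 18.2 CPM in DMSO members and 135 CPM in CHIR cells.

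Higher in the DMSO members were NPY, with 146 CPM against 0.705 CPM in CHIR cells (207-fold, 132 to 344), and CEBPD, a stress-responsive transcription factor, with 746 and 23.9 CPM (31.2-fold, 28.8 to 33.8). MGP had 178 and 6.16 CPM (28.8-fold) and ACTG2, enteric smooth muscle actin, 168 and 4.19 CPM (40.1-fold). As given above, a few cells held most of the ACTG2 UMIs of LUM-only cells, so the ACTG2 ratio rests in large part on few DMSO members. KRT18 had 5414 CPM in DMSO members and 913 CPM in CHIR cells, and DCN 600 and 286 CPM. Of 11 smooth muscle genes, 6 were higher and 2 lower, ACTA2 with 667 and 143 CPM and TAGLN with 2111 and 482 CPM. Of 8 IGF-axis genes, 5 were higher and none lower, IGFBP2 with 828 and 218 CPM and IGFBP5 with 557 and 223 CPM. Of 10 mesothelial genes outside the rule 4 were higher and none lower, whereas PDPN differed little, at 94.3 and 107 CPM. HAND1 was also close, at 422 and 495 CPM. Of 16 cell cycle genes none was higher and 6 were lower, MKI67 with 14.4 and 71.5 CPM. Of 28 HOX genes 4 were higher and 8 lower (median -0.28).

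Against the day 11 cells of the same rule, the DMSO members at day 15 had more MGP, DCN, IGFBP5 and SFRP2. Of 15314 genes, 2.93% were more than 2-fold higher (449 genes) and 38.4% lower (5881 genes), with a median log2 ratio of -0.64. Under TMM scaling the median was -0.01 and the counts were 1793 and 3301. A gene near a log2 ratio of -0.64 therefore did not differ from the run of all genes. MGP had 178 CPM in DMSO members and 24.1 CPM in day 11 cells, 7.39-fold higher (6.52 to 8.40). IGFBP5 had 557 and 146 CPM (3.81-fold), DCN 600 and 206 CPM (2.92-fold), SFRP2 27.6 and 2.15 CPM (12.9-fold) and the chemokine CXCL12 45.9 and 13.9 CPM. RGCC was 8.94-fold and NPY 4.89-fold higher, and PDPN had 94.3 and 44.5 CPM. KRT18, at 5414 and 5144 CPM, and HAND1, at 422 and 394 CPM, had log2 ratios of 0.07 and 0.10, above the median of all genes. COL1A1 had 617 CPM in DMSO members and 1298 CPM in day 11 cells, and COL3A1 970 and 1369 CPM, with log2 ratios of -1.07 and -0.50 on either side of that median.

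Long genes lay mostly on the lower side of this comparison. Across the 13721 genes with a length in the RefSeq table, the Spearman correlation of the log2 ratio with gene length was -0.51, a description over genes of the same 2 libraries. The median log2 ratio was -1.74 in the fifth of genes that was longest and -0.06 in the shortest. The 12 lowest genes, among them KCNIP4 (8.33 and 292 CPM), PTPRM (1.97 and 77.8 CPM), NRXN3 and CACNA1C, had a median length of 649 kb, against 31.3 kb over all genes. The ratio of TEX14, with 1 UMI in DMSO members and 587 in day 11 cells, was 907 (162 to 35884) on the lower side. Basement membrane genes had 0 of 14 higher and 13 lower (median -1.81, or -1.18 with 8 lower under TMM), and the endothelial list 0 of 7 higher and 5 lower. No source used here says whether intronic reads were counted alike in the libraries, and the part of gene length in these values was not tested. Against CHIR cells the correlation with length was -0.22, and within the DMSO library it was -0.09 against muscle cells and 0.01 between UPK3B-detected and LUM-only cells.

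**Figure D5:**
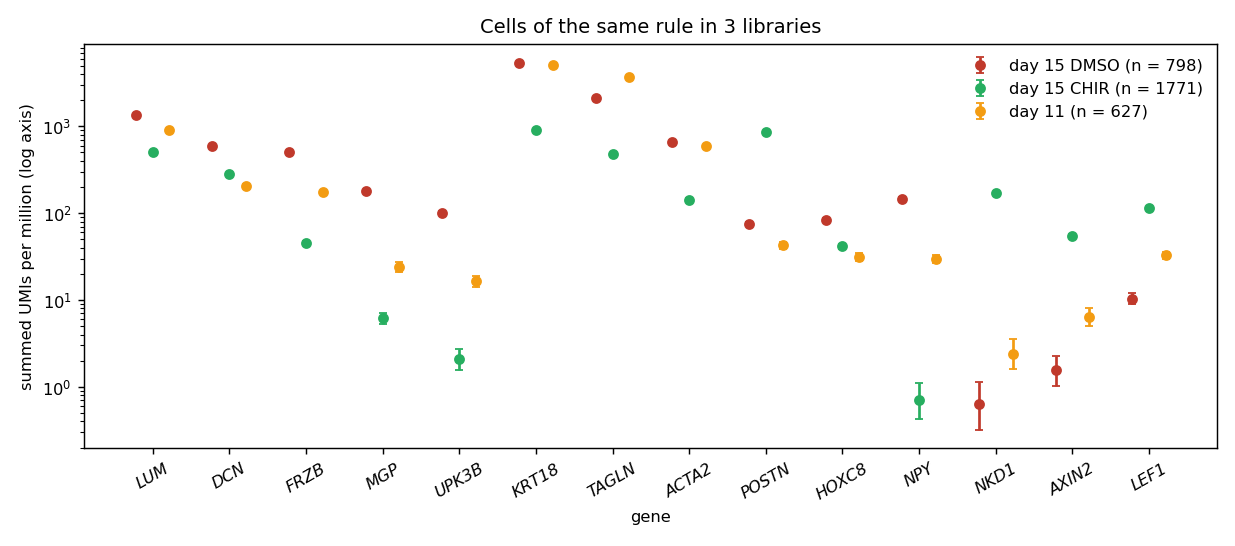
CPM (log axis) of 14 genes in cells of the same rule in the day 15 DMSO (red), day 15 CHIR (green) and day 11 (orange) libraries; bars are exact 95% Poisson intervals and each library is 1 sample. UPK3B, MGP and NPY were highest with DMSO, NKD1, AXIN2, LEF1 and POSTN with CHIR, and KRT18 was close between DMSO (5414 CPM) and day 11 (5144 CPM).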

How the data were processed

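The authors deposited each single-cell library as a table of raw UMI counts per gene and cell. Per the labels' protocols, which speak of day 15 also for the day 11 library, live cells were sorted by DAPI exclusion and 3′ droplet libraries were made. Per the submitters' processing notes, Cell Ranger 6.1.1 and GRCh38 were used, and the notes of day 11 also name R 4.1.0 and Seurat 4.3.0. The H3K27ac peak list, from CHIR cells, was not used here, and input chromatin was not analysed here.

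No deposited cell was removed. Raw counts were summed per gene over a class and divided by the class total (CPM). Ratios carry exact conditional binomial 95% intervals, shares Clopper-Pearson intervals, and log2 ratios have 0.5 added to each count. Genes needed at least 20 UMIs over both classes, and "higher" or "lower" counts lie past 2-fold. Named genes were the 12 highest and 12 lowest of those with at least 50 CPM in the higher class, leaving out mitochondrial, ribosomal and rule genes and IDs without a symbol, plus list genes, rule genes, MGP and DCN. No significance test was possible with 1 library per group. The summing and the intervals were tested on simulated Poisson counts. These had no variation between cells, so the test does not cover genes whose UMIs sat in few cells. Members and the 27 lists were chosen with earlier results of these data known. UPK3B-only cells being absent, UPK3B-detected cells took their place. Alternatives were totals without mitochondrial and ribosomal genes, TMM factors (edgeR 4.0.16, on summed counts), no count filter, mean per-cell CPM, thinning to 8000 UMIs, other rule limits, and leaving out Scrublet doublets (scanpy 1.11.5, expected rate 0.06) or EPCAM, CLDN4 and CLDN7 cells. Scrublet was run on the DMSO library only and called 220 of its cells. Leaving out called cells therefore removed no CHIR or day 11 cell. Python 3.11.15, numpy 2.4.6, scipy 1.17.1 and pandas 2.3.3 were used.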

Additional observations from a re-analysis of the deposited data

Results flagged for a closer look

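DKK1, a secreted inhibitor of Wnt co-receptors, differed between members and muscle cells in opposite directions in the day 15 libraries. With DMSO the log2 ratio of members over muscle cells was -1.67 (14.3 and 45.5 CPM), and with CHIR it was 2.35 (62.0 and 12.2 CPM). At day 11 it was 0.22 (25.9 and 22.3 CPM). Each library is 1 sample, so the difference between them was not tested. Among DMSO members, 70 of 798 cells carried DKK1 and 10 cells held 52.2% of its UMIs.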

How the results depend on the processing

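Of 6977 alternative values of single genes, 5429 stayed within the counting interval of the reported value and 1538 moved further. The other 10 changed sign from a reported value past 2-fold. Sign changes of genes within 2-fold were not counted apart. They also arose under other alternatives, as for TTN between UPK3B-detected and LUM-only cells (log2 ratio -0.63, or 0.07 after thinning). All 10 sign changes from past 2-fold came from leaving out the EPCAM, CLDN4 and CLDN7 cells. That alternative was chosen after seeing the data and removes cells by these genes. Against muscle cells the log2 ratio became -2.55 for EPCAM, -5.30 for CLDN4 and -0.69 for CLDN7. Against STMN2/SFRP5/TCF21 cells it became -3.13 for EPCAM, -4.72 for CLDN3, -6.47 for CLDN4, -2.90 for CLDN7 and -0.025 for ISL1. Against CHIR cells CLDN4 became -3.32, and against day 11 cells CDH1 became 0.35. The rule gave 423 members in place of 798 with a muscle score below 0.05 of the percentile, and between 734 and 947 under the other limits, thinning or doublet removal. UPK3B-only cells numbered 1 with at least 2 UMIs of the rule genes, or with a muscle score below 0.2 of the percentile, in place of 0. With no count filter, which adds genes of few UMIs, the counts of genes past 2-fold were 3075 higher and 6522 lower against muscle cells, 2300 and 2959 for UPK3B-detected against LUM-only cells, 2313 and 3844 against STMN2/SFRP5/TCF21 cells, 3444 higher against CHIR cells, and 1009 and 8919 against day 11 cells. Thinning to 8000 UMIs left 170 genes higher in UPK3B-detected cells, in place of 443. TMM factors gave 1793 higher and 3301 lower against day 11 cells. No paired analysis was possible because each single-cell group has 1 library and the numbered chromatin samples were not used. UPK3B was carried by 389 members, 258 after thinning and 169 with a muscle score below 0.05 of the percentile.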
